A study of Mus musculus with 4 samples.

Results

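Bone morphogenetic protein (BMP) signalling in the growing limb was followed through 10 genes: the ligands Bmp2, Bmp4, Bmp5 and Bmp7, the type I receptor Bmpr1a, the secreted antagonists Nog, Grem1 and Chrd, and the target genes Msx1 and Msx2. They were chosen by their role in the pathway and are 10 of the 26252 genes and transcript clusters of the tag table. A gene's count is the sum over all tags to which the table gave its Ensembl identifier. The data came from hindlimbs and forelimbs dissected from CD1 mouse embryos at E14.5, untreated and with no genetic change named, in 2 biological replicates of each limb type and 4 libraries in all. Pooling of embryos is not stated in the labels, nor is any link of a hindlimb sample to a forelimb sample of the same embryo, a batch or a date. A sample is a whole limb of many cell types, so fewer cells of a type and less RNA per cell cannot be told apart.

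BMPs are secreted dimers of the TGF-β family that bind type I and type II receptors at the cell surface. The receptors phosphorylate SMAD1, SMAD5 and SMAD9, which enter the nucleus with SMAD4 and act on target genes such as Msx1 and Msx2. Secreted antagonists bind the ligands and keep them from their receptors. In the limb the pathway is known for its part in digit patterning, cell death between the digits, cartilage formation and the placing of joints.

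The assay was digital gene expression by SAGE. The enzyme NlaIII cuts cDNA at CATG, and the 17 bases after the site are read and counted as a tag. A transcript should give the tag of its CATG nearest the poly(A) tail, and tags of sites further upstream are also seen. Library totals were 5325279 and 5015295 tags in hindlimb replicates 1 and 2, against 4695786 and 1829647 tags in forelimb replicates 1 and 2. Between 81.3% and 85.2% of a library's counts lay in tags assigned to a gene or cluster. Levels are in CPM, counts per 1000000 counts of a library scaled with the TMM factors of edgeR, in which 1 count was worth 0.222 and 0.252 CPM in hindlimb replicates 1 and 2, and 0.255 and 0.618 CPM in forelimb replicates 1 and 2. Levels were compared between limb types and not between genes, since tags differ in how well they are recovered. The limb-type genes stood as labelled. Pitx1 had 1137 and 1201 counts in hindlimb and 13 and 2 in forelimb, Tbx4 had 193 and 227 in hindlimb and 34 and 5 in forelimb, and Tbx5 had 4 and 6 in hindlimb and 72 and 24 in forelimb. All 4 limb mesenchyme markers (Prrx1, Prrx2, Twist1 and Hand2) were counted in every library. The libraries also differed in base composition, and the mean G and C content of a counted tag was 46.4% and 50.7% in hindlimb replicates 1 and 2, against 40.8% and 40.3% in forelimb replicates 1 and 2. This difference is set beside the results below.

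The tags on which the results turn are printed first, as deposited, from 5′ to 3′ after the CATG, with G and C in capitals because the composition of a tag goes with its behaviour between the limb types. Together these show how a single gene is read through several short sequences of unlike composition.
Msx1 tag 1: CtGGtGCttCaCCaaGG
Msx1 tag 3: CGCaaGttataaatGtG
Msx2 tag 1: taCCatCtatCCtaaGG
Msx2 tag 2: tGCttGaGttGCtGGaG
Nog tag 1: GCGaaGCaGGGGGGaaa
Nog tag 2: CGaaGGGtaCtGGGata
Bmp2 tag 1: GaaGGttGCtGaGCaaa
Bmp2 tag 2: aaGtataatGGtCaGaG
Bmp4 tag 1: ttGtaCCtGGatGaGta
Bmp4 tag 2: CCattGtGCaGaCCCta
Bmp4 tag 3: GGGaCtGtCCCtttCCa
Bmp7 tag 1: GCCCCtGGCGCtCtGaG
Bmp7 tag 2: aatGaaaaaaaaaaaaa
Bmp7 tag 1 outside the sum: tCtGtGtCCCtGGaaaC
Grem1 tag 1: ttCCtaaattaattCaC
Grem1 tag 1 outside the sum: tGaaGaGatGttaCCaa
The tags of a gene are numbered by falling count, separately for tags in the gene's sum and for tags outside it. The sums of the 10 genes held 89 tags and 4919 counts. Of these tags, 65 matched a sense transcript of their own gene in GENCODE M21, 16 matched its antisense strand and 8 matched neither. Positions here are GENCODE M21 on GRCm38 and were found by matching the tag, since the deposited assignment used mm9.

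The comparison of hindlimb with forelimb asked which BMP pathway genes differ between the limbs. Msx1 and Nog were higher in hindlimb, Msx2 was lower there by about as much as Msx1 was higher but did not pass the test, and none of the 4 ligands nor Bmpr1a passed in the deposited gene sums. By the quasi-likelihood test of edgeR with Benjamini-Hochberg adjusted p at most 0.05 over all genes tested, 2 of the 10 genes were called, both higher in hindlimb, and 8 were not. Of all 13718 genes tested, 16.7% were called, 9.58% higher and 7.08% lower in hindlimb, so the share among the 10 is near the background. The median log2 fold change, hindlimb over forelimb, was 0.32 over the 10 genes and −0.03 over all genes tested. All 10 passed the filter on low counts and had counts in each of the 4 libraries. In CPM, both hindlimb libraries stood above both forelimb libraries for Bmp4, Bmp7, Nog and Msx1, and below them for Msx2. That is 5 of 10 genes without overlap, against 62.8% of all genes tested. The tag-sequence offset is a correction per library for differences between the tags of a gene that go with their bases. It was fitted on these same libraries, and whether such differences come from tag recovery was not tested. With the offset, 0 of the 10 genes were called by edgeR, against 0.241% of all genes. In that fit 1 of the 10, Bmpr1a, was under 0.05 unadjusted, near the background of 1247 of all 13718 genes. Bmpr1a was higher in hindlimb there, with a log2 fold change of 0.53, against −0.17 without the offset.

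**Figure D1:**
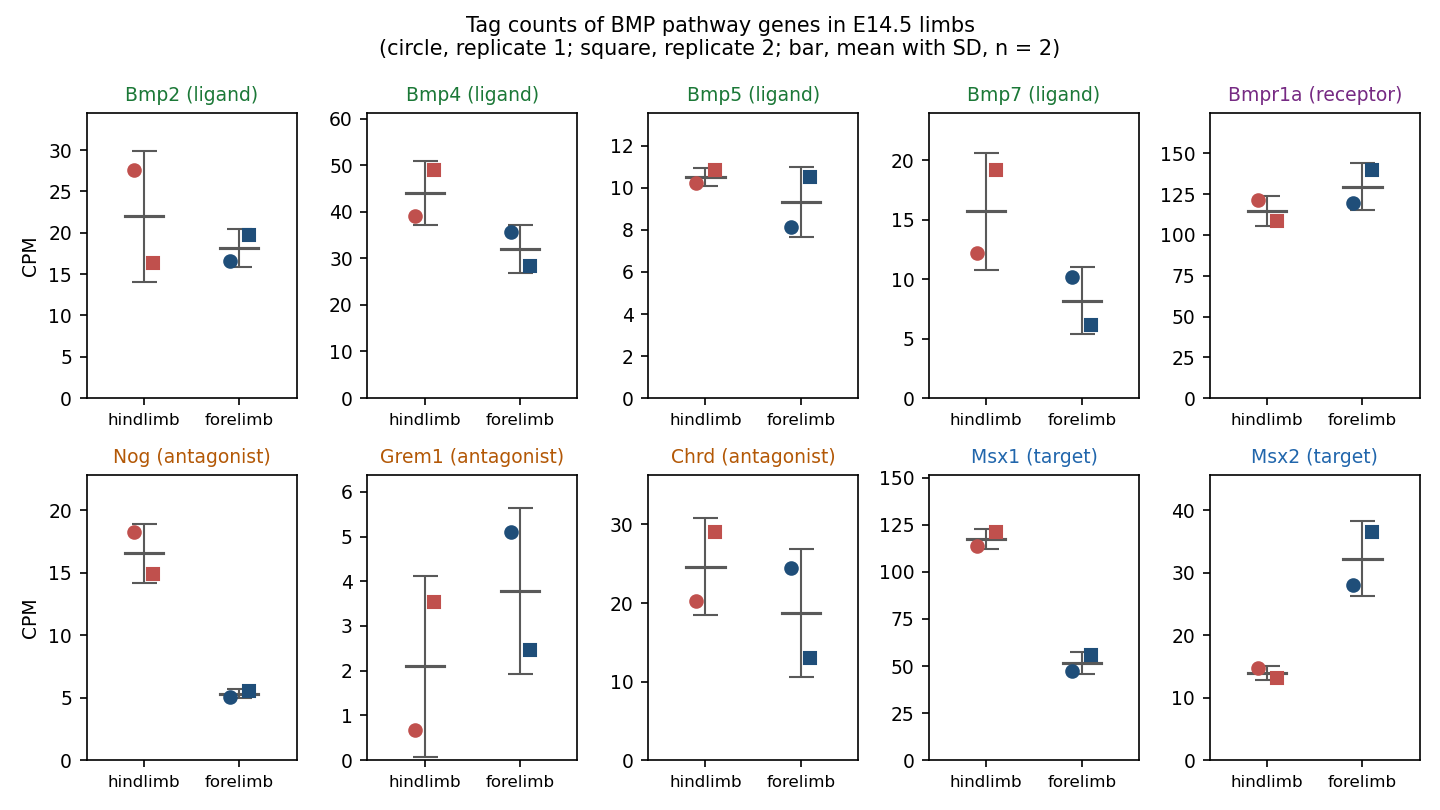
Level of each of the 10 genes in CPM, with hindlimb left and forelimb right. Circles are replicate 1, squares replicate 2, and bars the mean with SD (n = 2 each). The limb types stand apart for Msx1, with 114 and 121 CPM in hindlimb against 47.4 and 55.6 CPM in forelimb, and overlap for Bmp2, Bmp5, Bmpr1a, Grem1 and Chrd.

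All 4 ligands had a positive fold change in the deposited sums, and 0 of them were called by edgeR or DESeq2. In edgeR 0 were under 0.05 unadjusted, against 4449 of all 13718 genes tested. With the tag-sequence offset the ligands did not share a sign. Bmp2 and Bmp5 were then at 0.48 and 0.31 on the log2 scale, and Bmp4 and Bmp7 at −0.39 and −0.40. Bmp4, which acts early in limb outgrowth and later in the tissue between the digits (ENSMUSG00000021835, chromosome 14, 46383520 to 46390669, minus strand), had 176 and 194 counts in hindlimb and 140 and 46 in forelimb. Its level was 44.0 ± 6.91 CPM in hindlimb and 32.0 ± 5.11 CPM in forelimb (SD, n = 2 each), with both hindlimb libraries above both forelimb libraries. A log2 fold change of 0.45 ± 0.37 (SE, edgeR adjusted p = 0.431) was fitted. Bmp7, a ligand of the limb margin and the digits' flanks (ENSMUSG00000008999, chromosome 2, 172868012 to 172940321, minus strand), had 55 and 76 counts in hindlimb and 40 and 10 in forelimb, or 12.2 and 19.2 CPM in hindlimb against 10.2 and 6.18 CPM in forelimb. Both hindlimb libraries stood above both forelimb libraries, and the log2 fold change of 0.89 ± 0.52 (SE, edgeR adjusted p = 0.25) was the largest of the ligands. Other ways of choosing its tags, planned as alternatives, called Bmp7 in edgeR: its most abundant tag alone (2.46, adjusted p = 0.035) and tags that match 1 gene (2.31, adjusted p = 0.0295). Both rest on nearly the same counts, since tag 1 held 99 of the 114 counts in tags that match 1 gene. Most Bmp7 counts lie outside the deposited sum, as described below. With those added by transcript match, Bmp7 was at 0.85 (edgeR adjusted p = 0.105).

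Bmp2, a ligand of chondrocytes and of the region of digit patterning (ENSMUSG00000027358, chromosome 2, 133552159 to 133562885, plus strand), had 124 and 65 counts in hindlimb and 65 and 32 in forelimb. The limb types overlapped in CPM, since hindlimb replicate 2, at 16.4 CPM, was below both forelimb libraries, at 16.6 and 19.8 CPM. The fitted log2 fold change was 0.29 ± 0.43 (SE, adjusted p = 0.691 in edgeR). Bmp5, known in mice from the short ear mutation of skeletal form (ENSMUSG00000032179, chromosome 9, 75775364 to 75900310, plus strand), had 46 and 43 counts in hindlimb and 32 and 17 in forelimb. Its libraries ran from 10.2 to 10.8 CPM in hindlimb and from 8.15 to 10.5 CPM in forelimb, a log2 fold change of 0.19 ± 0.54 (SE, edgeR adjusted p = 0.838). Summed over the ligands, the level was 89.2 and 95.3 CPM in hindlimb against 70.5 and 64.9 CPM in forelimb. The 95% intervals allow a hindlimb level of 0.648 to 2.30 times the forelimb level for Bmp2, 0.799 to 2.32 times for Bmp4, 0.517 to 2.53 times for Bmp5 and 0.868 to 3.95 times for Bmp7.

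The receptor gene Bmpr1a encodes a type I receptor needed in mice for limb outgrowth and for cartilage (ENSMUSG00000021796, chromosome 14, 34410734 to 34503341, minus strand). It had 545 and 430 counts in hindlimb and 469 and 226 in forelimb. The CPM values overlapped, at 121 and 108 CPM in hindlimb and 119 and 139.6 CPM in forelimb. On the log2 scale hindlimb over forelimb was −0.17 ± 0.31 (SE, edgeR adjusted p = 0.745), with a 95% interval from 0.564 to 1.40 times the forelimb level. Among 2629 tested genes with a mean CPM within 2-fold of its own, the 3 whose centred log2 CPM lay closest to that of Bmpr1a over the 4 libraries were Serpinb6a, Cbr1 and Cdc42bpa, at distances of 0.034, 0.049 and 0.054 on the log2 scale.

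Of the antagonists, Nog was called and Chrd and Grem1 were not. Nog encodes noggin, which binds BMPs and is needed for the joints of the digits (ENSMUSG00000048616, chromosome 11, 89300638 to 89302332, minus strand). It had 82 and 59 counts in hindlimb and 20 and 9 in forelimb, or 18.2 and 14.9 CPM in hindlimb against 5.09 and 5.56 CPM in forelimb. The groups did not overlap, and Nog was 3.12-fold higher in hindlimb, with a 95% interval of 1.43 to 6.81-fold. On the log2 scale this is 1.64 ± 0.54 (SE, edgeR adjusted p = 0.0442). This call lies close to the threshold and was lost without any single library, hindlimb replicate 1 (adjusted p = 0.129), hindlimb replicate 2 (0.088), forelimb replicate 1 (0.167) or forelimb replicate 2 (0.107), in edgeR's test, with DESeq2 (0.0798) and with library totals alone (0.0531). The tag-sequence offset brought the log2 fold change to 0.33 ± 0.48 (SE, edgeR adjusted p = 0.891).

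Chrd encodes chordin, a ligand-binding antagonist that the protease of Bmp1 cleaves (ENSMUSG00000006958, chromosome 16, 20733127 to 20742384, plus strand). It had 91 and 115 counts in hindlimb and 96 and 21 in forelimb, and the ranges of 20.2 to 29.0 CPM in hindlimb and 13.0 to 24.4 CPM in forelimb overlapped. The fitted log2 fold change was 0.35 ± 0.43 (SE, adjusted p = 0.618 in edgeR). Grem1 encodes gremlin, the antagonist that keeps the signalling loop between limb mesenchyme and the apical ridge running in the early bud (ENSMUSG00000074934, chromosome 2, 113746164 to 113758646, minus strand). Its sum was the smallest of the 10, with 3 and 14 counts in hindlimb and 20 and 4 in forelimb. The libraries of each limb type differed more than the limb types did, and the log2 fold change of −0.91 ± 1.05 (SE, edgeR adjusted p = 0.593) has a 95% interval from 0.115 to 2.47 times the forelimb level, which includes differences of either sign. This holds for the deposited sum, and other Grem1 tags are added below.

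The target genes Msx1 and Msx2 encode closely related homeodomain factors that BMPs induce in limb mesenchyme and in the tissue between the digits. Msx1 (ENSMUSG00000048450, chromosome 5, 37820485 to 37824583, minus strand) had 511 and 480 counts in hindlimb and 186 and 90 in forelimb. Its level was 117 ± 5.23 CPM in hindlimb and 51.5 ± 5.83 CPM in forelimb (SD, n = 2 each), so that the lowest hindlimb library stood above the highest forelimb library. Msx1 was 2.29-fold higher in hindlimb (95% interval 1.43 to 3.67), a log2 fold change of 1.19 ± 0.33 (SE, edgeR adjusted p = 0.0191). The call was lost in edgeR without forelimb replicate 1 (1.08, adjusted p = 0.202) and without forelimb replicate 2 (1.30, adjusted p = 0.119), fits in which the lone forelimb library is taken to vary like the hindlimb ones. Under the offset it was at 0.24 ± 0.24 on the log2 scale (SE, edgeR adjusted p = 0.826).

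Msx2 (ENSMUSG00000021469, chromosome 13, 53466884 to 53473074, minus strand) had 66 and 52 counts in hindlimb and 110 and 59 in forelimb, although both hindlimb libraries were the deeper. In CPM it had 14.7 and 13.1 in hindlimb against 28.0 and 36.5 in forelimb, with no overlap. The hindlimb level was 0.435 times the forelimb level (95% interval 0.24 to 0.789), a log2 fold change of −1.20 ± 0.41 (SE, edgeR adjusted p = 0.0516), just outside the threshold of 0.05. In edgeR's test its unadjusted p was 0.00878. Msx2 passed without hindlimb replicate 1 (adjusted p = 0.0489 in edgeR) and with all libraries thinned to the smallest (adjusted p = 0.0373 in edgeR). Both Msx genes are taken as targets of the same pathway, and their fold changes had opposite signs in these libraries. Under the offset Msx2 was at −0.72 ± 0.38 (SE, edgeR adjusted p = 0.597), which kept its sign and was the largest change of the 10 genes on that scale.

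**Figure D2:**
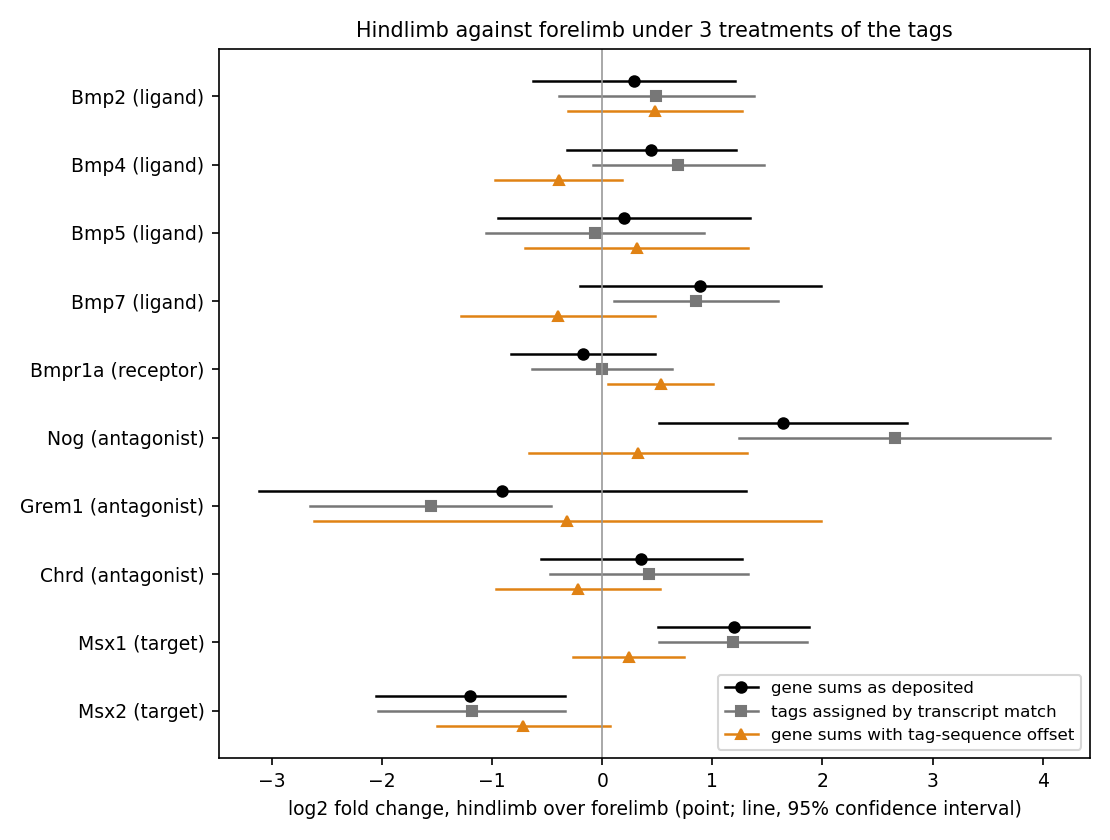
Log2 fold change of hindlimb over forelimb with its 95% confidence interval, from the deposited gene sums (black circles), from tags reassigned by transcript match (grey squares) and from the gene sums with the tag-sequence offset (orange triangles). Msx1 stands at 1.19, 1.19 and 0.24, Nog at 1.64, 2.66 and 0.33, and Msx2 at −1.20, −1.19 and −0.72.

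Reading the genes tag by tag showed that the tags assigned to a single gene often differed in sign. Enough counts for a fit were found for 32 of the 89 tags, and 9 genes had at least 2 such tags. In 6 of these 9, namely Bmp2, Bmp4, Bmp7, Bmpr1a, Nog and Msx1, some tags were higher and others lower in hindlimb by their fitted log2 fold change. In Bmp4, Bmp7 and Nog the only fitted tag below 0 matched no sense transcript of the gene. Among fitted tags in the sums that match the message, both signs were thus seen in Bmp2, Bmpr1a and Msx1. Tags outside the sums, described below, are left out here, and those of Bmp7 went both ways. Outside its sum, Bmp7 tag 1 had 149 and 111 counts in hindlimb against 44 and 7 in forelimb. Tag 6 there, also in the 3′ UTR, had 1 and 0 counts in hindlimb against 15 and 5 in forelimb. Tags rich in G and C tended to be the higher ones: 10 of the 15 tags with at least 50% G and C were above 0, against 6 of the 17 tags with less. Over the 32 tags, Spearman's rank correlation between G and C content and log2 fold change was 0.65, and over all 37805 tags fitted it was 0.59. Tags share libraries and genes here, so these are descriptions with no p. At the level of whole genes the rank correlation was 0.75 over the 10 genes and 0.66 over all 13718.

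Msx1 and Bmp7 are examples of such unlike tags. Msx1 tag 1, at the last CATG of the 3′ UTR, 224 bases from the end of the transcript (chromosome 5, 37820709 to 37820725), held 72.8% of the gene's counts, with 385 and 389 in hindlimb and 101 and 48 in forelimb. Msx1 tag 3, at the third CATG from the end of the same UTR (chromosome 5, 37820998 to 37821014), had 9 and 20 counts in hindlimb and 37 and 16 in forelimb. Tag 1 has 58.8% G and C and tag 3 has 35.3%, and their log2 fold changes were 1.73 and −1.46. With the offset, which is itself fitted on differences between tags of a gene, they came to 0.30 and −0.11.

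Bmp7 tag 1, with 76.5% G and C, lies in the 3′ UTR (chromosome 2, 172869827 to 172869843) and had 36 and 53 counts in hindlimb and 7 and 3 in forelimb. Bmp7 tag 2, nearly all A, had 8 and 6 counts in hindlimb and 31 and 4 in forelimb and matched no transcript of GENCODE M21. Their log2 fold changes were 2.53 and −1.70, and −0.52 and 0.17 with the offset. The sum of Bmp7 therefore adds tags of opposite sign.

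Tags of both signs were also found in Bmp2, Bmp4 and Nog. Bmp2 tag 1, at the last CATG of the 3′ UTR (chromosome 2, 133562170 to 133562186), had 88 and 52 counts in hindlimb and 25 and 16 in forelimb, and tag 2, at the next CATG upstream (chromosome 2, 133561992 to 133562008), had 11 and 4 in hindlimb and 33 and 10 in forelimb. Bmp4 tag 2, in the coding sequence (chromosome 14, 46384006 to 46384022), had 65 and 76 counts in hindlimb and 19 and 5 in forelimb. Tag 1 of Bmp4, also coding (chromosome 14, 46383920 to 46383936), had 73 and 67 in hindlimb and 67 and 25 in forelimb. Bmp4 tag 3 matched no GENCODE M21 transcript and had 26 and 32 counts in hindlimb and 51 and 12 in forelimb. So the tags of Bmp4 ranged from a log2 fold change of −0.60 to 2.02.

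Nog tag 1, at the last CATG of the 3′ UTR (chromosome 11, 89300922 to 89300938), had 56 and 22 counts in hindlimb and 6 and 2 in forelimb. Nog tag 2 had 2 and 18 counts in hindlimb and 12 and 5 in forelimb. This tag reads the antisense strand of Nog, so it is counted in the deposited sum without being part of the Nog message. Without such tags the difference was larger, as given below for the transcript match.

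The 2 fitted tags of Msx2 had the same sign. Tag 1, across the end of the coding sequence (chromosome 13, 53468167 to 53468183), had 29 and 23 counts in hindlimb and 66 and 27 in forelimb. Tag 2, at the last CATG of the 3′ UTR (chromosome 13, 53467045 to 53467061), had 32 and 23 counts in hindlimb and 42 and 31 in forelimb. Their G and C content was 41.2% and 52.9%, and their log2 fold changes were −1.45 and −1.18, or −0.97 and −0.52 with the offset. Bmp5 and Chrd also had fitted tags of a single sign, both above 0.

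Bmp2 and Bmp4 are close relatives, and some of their tags come from matching stretches of the coding sequence. Counted from the first base after CATG, Bmp4 tag 1 differs from Bmp2 tag 3 by A9G, A15G and A16T, with the base of Bmp2 written first. Bmp4 tag 2 differs from Bmp2 tag 7 by A5T, T14C and G17A. Each of these 4 tags matched only its own gene in GENCODE M21, and the Bmp2 ones were small, with 16 and 2 counts over the 4 libraries.

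**Figure D3:**
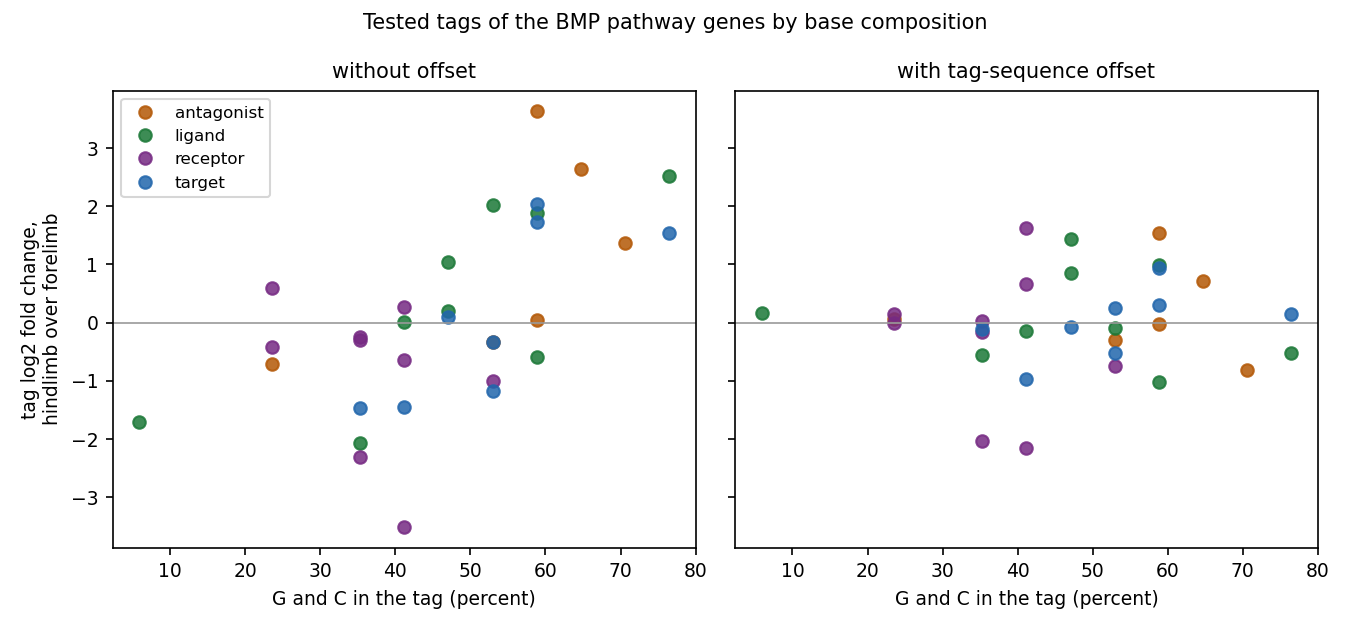
Log2 fold change of hindlimb over forelimb for the 32 tags of the 10 genes that could be fitted, against the share of G and C in the tag, without (left) and with (right) the tag-sequence offset. Colours mark ligand, receptor, antagonist and target genes. On the left, 10 of the 15 tags with at least 50% G and C were above 0, against 6 of the 17 tags with less.

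Whether the tags of a gene changed by unequal amounts was tested with diffSpliceDGE of edgeR (Simes p per gene, Benjamini-Hochberg adjusted). Of the 9 genes with at least 2 tested tags, 0 were called, against 10.4% of the 8694 genes tested. Under 0.05 unadjusted were 4 of the 9 (Bmp2, Bmp7, Bmpr1a and Msx1). This share was not counted over all genes, so it is not read as a result about these genes. Msx1 (adjusted p = 0.0601) and Bmpr1a (adjusted p = 0.0749) came closest. The tag behind Bmpr1a was its tag 6, an antisense tag with 8 and 0 counts in hindlimb and 35 and 21 in forelimb. Bmpr1a was called by this test without hindlimb replicate 1 (adjusted p = 0.00909), a fit that called 22.5% of all genes; without each other library in turn, 0.126% to 1.52% of all genes were called. In 8 of the 9 genes, Msx2 being the other, the tags lay closer together with the tag-sequence offset. The median span from the lowest to the highest tag was 0.92 with it and 3.10 without it on the log2 scale. The offset is fitted on such differences between tags of a gene in these same libraries. A narrower span is therefore what the fit is made to give, and nothing further is read from it.

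Tags that match the message of these genes but carry no Ensembl identifier in the table were then counted. For most of the genes they were few, and for Bmp7 and Grem1 they outnumbered the tags in the sum that match the message. Bmp7 had 13 such tags with 545 counts, 82.7% of all its sense counts, and 3 of them belonged to a UniGene cluster that the table ties to no gene. The largest, at the last CATG of the Bmp7 3′ UTR, 471 bases from the end (chromosome 2, 172868483 to 172868499), had 149 and 111 counts in hindlimb and 44 and 7 in forelimb. The share outside the sum was 72.8% for Grem1, 32.7% for Bmp5 and 18.8% for Bmpr1a, and it was below 10% for Bmp2, Bmp4, Chrd and Msx1 and 0 for Nog and Msx2. The main Grem1 tag outside the sum, at the last CATG, 479 bases from the end (chromosome 2, 113746643 to 113746659), had 12 and 0 counts in hindlimb and 17 and 31 in forelimb. Grem1 tag 1, the one that makes up 90.2% of the deposited sum, lies 2950 bases from the end (chromosome 2, 113749114 to 113749130) and had 2 and 14 in hindlimb and 19 and 2 in forelimb.

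**Figure D4:**
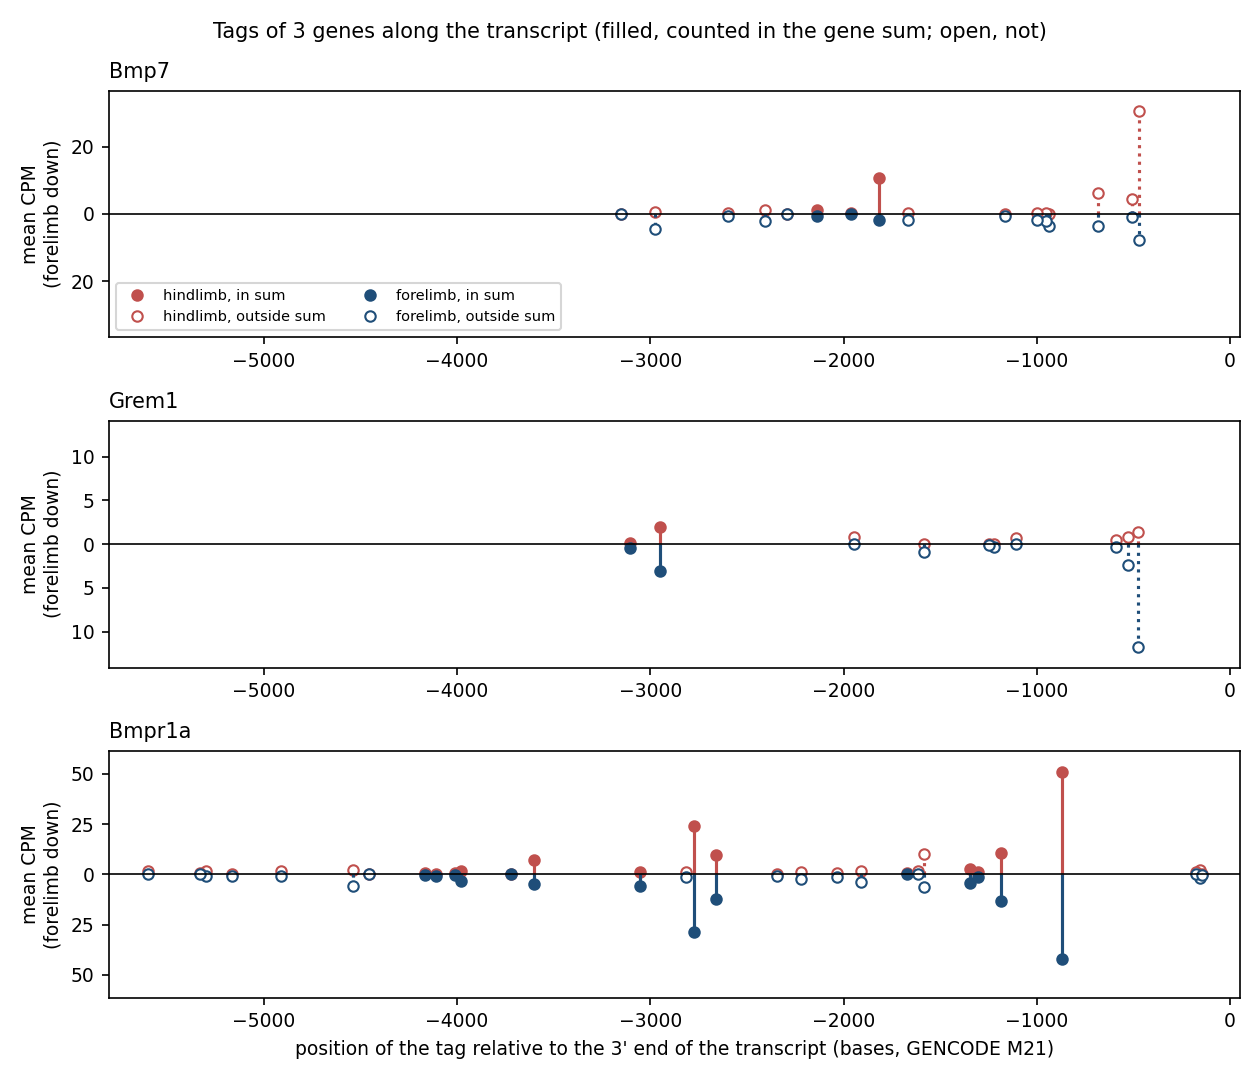
Mean CPM of each tag of Bmp7, Grem1 and Bmpr1a along the transcript, with hindlimb drawn upward and forelimb downward, by distance from the 3′ end in bases. Filled points are tags counted in the deposited gene sum and open points are tags outside it. In the upper panels the tallest open points are the Bmp7 tag 471 bases and the Grem1 tag 479 bases from the end.

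When every tag was assigned by its match to GENCODE M21 sense transcripts of a single gene, a choice made after these tags had been seen, 3 of the 10 genes were called by edgeR, against 16.7% of 12548 genes (9.89% higher and 6.78% lower in hindlimb). Nog, with 78 and 41 counts in hindlimb and 8 and 4 in forelimb, had a log2 fold change of 2.66 ± 0.68 (SE, edgeR adjusted p = 0.0119). Msx1 stayed at 1.19 ± 0.32 (SE, edgeR adjusted p = 0.0165). Grem1 joined them on the lower side with 28 and 25 counts in hindlimb and 54 and 40 in forelimb, or 8.22 and 8.47 CPM in hindlimb against 18.1 and 32.2 CPM in forelimb. Its libraries no longer overlapped, and hindlimb lay at −1.56 ± 0.52 on the log2 scale (SE, edgeR adjusted p = 0.0475). Bmp7, now with 249 and 227 counts in hindlimb and 138 and 45 in forelimb, was at 0.85 ± 0.36 (SE, edgeR adjusted p = 0.105). Once the offset was applied to these sums, 0 of the 10 were called by edgeR, and Grem1 was at −0.51 and Nog at 0.89. In that fit 1 of the 10 was under 0.05 unadjusted, against 1138 of all 12548 genes.

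Among 49 other genes of the pathway, all of them in the table and 40 of them tested, 2 rose and 2 fell in hindlimb and 36 did not pass. Their median log2 fold change was −0.06, beside −0.03 over all genes tested, and the share called is below that of all genes. Bmp1, a protease that cleaves chordin, had 106 and 239 CPM in hindlimb and 40.5 and 21.6 CPM in forelimb, a log2 fold change of 2.44 ± 0.42 (SE, edgeR adjusted p = 0.00162). Smad6, an inhibitory SMAD that BMP signals induce, had 14.01 and 30.3 CPM in hindlimb and 3.82 and 1.85 CPM in forelimb, a change of 2.83 ± 0.60 (SE, adjusted p = 0.00505 in edgeR). Both calls had tags rich in G and C, 64.5% and 60.3% on average.

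The falling pair belonged to the targets. Id3, an inhibitor of helix-loop-helix factors, had 97.2 and 41.3 CPM in hindlimb and 165 and 313 CPM in forelimb, a change of −1.78 ± 0.41 (SE, edgeR adjusted p = 0.00761). Tbx3, a T-box factor of the limb margins, had 10.2 and 7.06 CPM in hindlimb and 24.2 and 43.9 CPM in forelimb, a change of −1.95 ± 0.46 (SE, edgeR adjusted p = 0.00911). Id3 had 24.4% G and C in its tags on average and Tbx3 had 38.4%. Smad6 lost its call without hindlimb replicate 2, and Id3 and Tbx3 lost theirs without forelimb replicate 2. With the tag-sequence offset 0 of the 40 were called by edgeR and 3 were under 0.05 unadjusted, against 1247 of all 13718 genes. Bmp1 was then at 0.11, Smad6 at 0.64, Id3 at −0.20 and Tbx3 at −1.01.

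By role, 1 of 13 other antagonists and extracellular modulators, 1 of 8 intracellular mediators and 2 of 10 other targets were called by edgeR. The share over all genes tested was 16.7%. Of 4 other ligands and 5 other receptors, 0 were called by edgeR or DESeq2. In edgeR 1 ligand and 2 receptors were under 0.05 unadjusted, against 4449 of all 13718 genes. The 2 most abundant of each role did not pass in edgeR, and of these Id2 passed in DESeq2 (adjusted p = 0.0394). Gdf5, a joint-forming ligand, had 50.5 and 35.0 CPM in hindlimb against 22.7 and 21.01 CPM in forelimb (log2 fold change 0.96, edgeR adjusted p = 0.0903). Gdf6, its relative, had 20.2 and 23.2 CPM in hindlimb against 23.9 and 14.2 CPM in forelimb. The type I receptor Acvr1 was at 0.87 and the type II receptor Acvr2a at −0.62 on the log2 scale. The modulators Fstl1 and Htra1 were at −0.34 and 0.71, the signal transducers Smad5 and Smad1 at −0.04 and −0.43, and the targets Id2 and Id1 at 0.80 and −0.08.

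**Figure D5:**
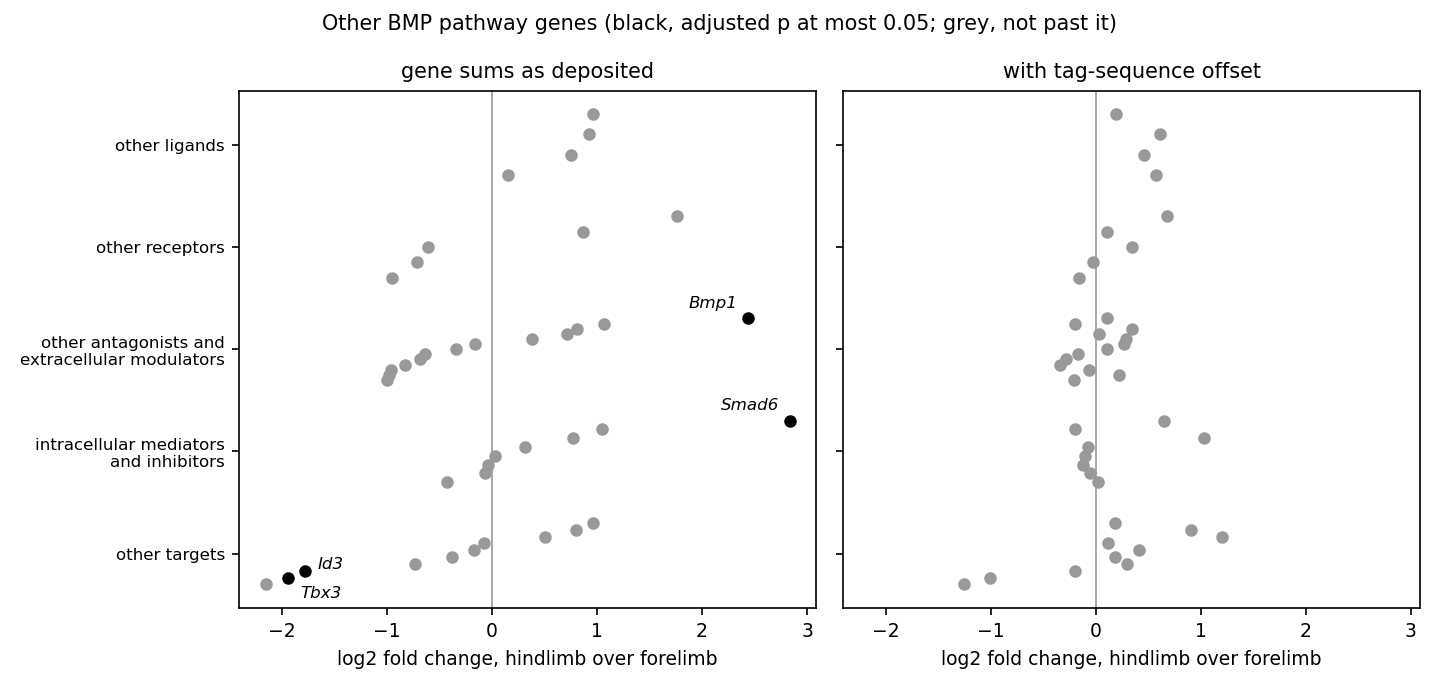
Log2 fold change of hindlimb over forelimb for the 40 tested other genes of the pathway by role, from the deposited gene sums (left) and with the tag-sequence offset (right). Black points passed the adjusted p of 0.05 and are named. They are Bmp1, Smad6, Id3 and Tbx3 on the left, and 0 genes on the right.

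Markers of several tissues also differed between the limb types. As background, edgeR called 9.58% of all 13718 genes tested higher and 7.08% lower in hindlimb. Of 7 skeletal muscle markers, 6 were called lower in hindlimb, and their summed level was 975 and 1022 CPM in hindlimb against 3034 and 2598 CPM in forelimb. Of 7 cartilage markers, 2 were called higher and 1 lower, with summed levels of 4060 and 5579 CPM in hindlimb against 2900 and 2689 CPM in forelimb. Col2a1, called higher, was the largest part of this sum, with 1853 and 3274 CPM in hindlimb against 1092 and 772 CPM in forelimb. Col9a2, the other one called higher, had 820 and 1283 CPM in hindlimb against 291 and 334 CPM in forelimb. Of the 7 cartilage markers, 4 had a positive and 3 a negative log2 fold change. Of 9 epidermis markers, 4 were called higher and 2 lower, with 1901 and 2702 CPM in hindlimb against 1421 and 1396 CPM in forelimb. The 6 joint interzone markers, of the tissue where Nog and Gdf5 act, had 0 calls in edgeR and in DESeq2. In edgeR 3 were under 0.05 unadjusted, Gdf5 and Wnt9a higher and Osr2 lower in hindlimb, against 4449 of all 13718 genes. Of the 6, 3 had a positive and 3 a negative log2 fold change. They summed to 166.5 and 143 CPM in hindlimb against 152 and 192 CPM in forelimb. Osr2 was the largest part of this sum, with 66.7 and 54.2 CPM in hindlimb against 80.7 and 125 CPM in forelimb. Of the 3 red cell markers analysed, Hba-a2 was called higher and Hbb-bs lower in hindlimb, and their sum of 7246 and 8578 CPM in hindlimb against 12128 and 9666 CPM in forelimb was mostly Hbb-bs. With the tag-sequence offset edgeR called 1 of 7 muscle markers, 0 of 7 cartilage, 0 of 9 epidermis, 0 of 6 interzone and 0 of 3 red cell markers. The share called in that fit was 0.241% of all genes. At an unadjusted p under 0.05 in edgeR, 6 muscle, 1 cartilage, 1 epidermis, 0 interzone and 2 red cell markers passed with the offset. Over all genes 1247 of 13718 did. The median log2 fold change was then −0.84 for muscle, against −1.64 without the offset, and −0.30 for epidermis, against 0.43 without it. No analysed marker was at 0 in any library. The part of cell type makeup in the differences of Msx1, Nog and Msx2 was not tested.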

How the data were processed

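The authors deposited 1 table of raw, unnormalized tag counts per library, with an Ensembl gene or UniGene cluster for 166502 of its 733961 tags of 17 bases. The submitters' processing notes name Bowtie and mm9, with settings not given in the sources used here. Deposited counts were summed per Ensembl gene, or per cluster without a gene. Unassigned tags held 14.8% to 18.7% of the counts and entered neither library sizes nor tests.

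Hindlimb was compared with forelimb over 4 libraries with edgeR 4.0.16 in R 4.3.3 (TMM, filterByExpr, glmQLFit and glmQLFTest, Benjamini-Hochberg over all genes tested), without a replicate block. With 2 libraries a limb type, an exact two-sided permutation test of a single gene cannot go below p = 0.333. The tag-sequence offset models base and position, the first dinucleotide and squared G and C and purine content of the tag per library, fitted on differences between 61466 tags of 11818 genes with at least 10 counts a tag. Tags are PCR products without molecular identifiers. Alternatives were DESeq2 1.42.0, library totals alone, no filter, each library left out, the replicate block, other choices of tags, the offset and thinning; those by transcript match and a crossed block were added after the data had been seen.

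The 10 genes and all lists were chosen with earlier results of these data known. Named besides the 10 were called genes of the pathway list (up to 8, by p) and the 2 most abundant of each role. Tags described hold at least 10% of a gene's counts, or were chosen after their values were seen (Msx1 tag 3, Bmpr1a tag 6, Bmp2 tags 3 and 7, and tags outside the sums).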

Additional observations from a re-analysis of the deposited data

Results flagged for a closer look

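Counts were found in tags that match a sense transcript of a single member gene in GENCODE M21 but that the gene sums do not use, in each case above the 3 counts that a count of 0 allows. Over the 4 libraries they came to 27 counts for Bmp2, 31 for Bmp4, 67 for Bmp5, 545 for Bmp7, 368 for Bmpr1a, 107 for Grem1, 8 for Chrd and 4 for Msx1. By library, the tags of Bmp7 outside its sum had 207 and 168 counts in hindlimb and 130 and 40 in forelimb. Those of Bmpr1a had 114 and 118 counts in hindlimb and 94 and 42 in forelimb, and those of Grem1 had 25 and 11 in hindlimb and 34 and 37 in forelimb. For Grem1 the tags inside and outside the sum together gave a call that the sum alone did not, as reported above.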

How the results depend on the processing

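The count of 2 called genes of the 10 was 1 under DESeq2, 1 when scaled by library totals alone, and 0 with the tag-sequence offset; with a single library left out it ran from 0 (without forelimb replicate 1 or 2) to 2 (Msx1 and Msx2, without hindlimb replicate 1). It was 3 with the most abundant tag alone and with tags matching 1 gene (Bmp7, Msx1 and Nog each time). These settings called 2933 of 12483 and 2025 of 11435 of all genes. With thinning it was 3 of 9 tested (Msx1, Msx2 and Nog), where 2632 of 11284 of all genes were called. With the replicate block it was 1, as Nog was at 1.64 with an adjusted p of 0.0559 in edgeR. The labels do not tie equal replicate numbers together, so the numbers are taken as shared names only. Deviations of equally numbered samples correlated at −0.11. This value cannot decide whether they are linked, since the hindlimb replicates also differed in tag composition (46.4% and 50.7% G and C). A crossed pairing called 3 of the 10 genes, 8 of the pathway list and 3170 of all genes.

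Over all genes the 2285 calls became 33 with the offset and 950 to 3900 with a library left out, the highest without hindlimb replicate 1. The 4 calls of the pathway list became 7 with DESeq2, 10 with the most abundant tag alone, 7 with the last NlaIII site alone, 8 with thinning, 0 with the offset and 2 to 15 with a library left out. Of the list, 36 genes were tested with the most abundant tag alone, 31 with the last site alone and 35 with thinning. Of all genes these settings called 2933 of 12483, 2189 of 9842 and 2632 of 11284. Assignment by transcript match with the offset called 0 of the 10, 0 of the list and 58 of all genes. Tag usage called 0 of the members, and 0 to 1 with a library left out; its fit with the offset was not run, because diffSpliceDGE takes no offset that differs between the tags of a gene. Over all genes the 905 tag usage calls became 131 with the block, 322 without the filter and 12 to 2139 with a library left out.

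Of 157 fold changes of the 10 genes under alternatives, 122 kept direction and side of the threshold, 13 lost and 6 gained a call, and 16 reversed. The reversed ones, none of them called, were Bmp2 without hindlimb replicate 1 (−0.15; 0.63 at most with a library left out), Bmp5 thinned (−0.26) and by transcript match (−0.067), Chrd without forelimb replicate 2 (−0.0014; 0.92 at most), and, with the most abundant tag alone, Bmp4 (−0.055), Chrd (−0.0036) and Bmpr1a (0.21), and Bmp4 at the last site (−0.10). With the offset Bmp4 (−0.39), Bmp7 (−0.40), Chrd (−0.22) and Bmpr1a (0.53) reversed, and by transcript match with the offset Bmp4 (−0.23), Bmp7 (−0.50), Chrd (−0.18) and Bmpr1a (0.58). The cause was not tested. The deposited sum of Grem1 rests on few counts, 3 in its lowest library.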
